A study of Homo sapiens with 10 samples.

Results

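The genes GREB1L, LIX1, LIMCH1, TRPC4, LRP2, PLCL2, TNFRSF19 and WFIKKN2, had lower RNA levels in a sorted fraction of human embryonic stem cells than in the unsorted culture, and their levels are described here in 10 libraries. These 8 genes, out of 55841 gene IDs counted, were chosen by their difference between the sorted and the unsorted libraries in both batches, so that difference is given as a description with no test. The general population was the nonsorted culture of the line labelled HES9, grown in mTESR1 with matrigel, a feeder-free system that maintains pluripotent cells. HHH denotes cells of the same culture sorted for high levels of GCTM-2, an antibody that binds a surface proteoglycan of pluripotent cells, of the tetraspanin CD9 and of the epithelial adhesion molecule EPCAM. Batch 1 held 2 general and 2 HHH libraries, and batch 2 held 3 of each. No label gave any library a treatment or an altered gene, although the series' design text mentions protein kinase C inhibitors for some of the total population. All libraries carry the label of 1 line, which the study's text names WA09. The general population holds HHH-type cells as well, so each comparison set a purified fraction against a mixture.

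The 8 genes belong to several unrelated families. GREB1L is a relative of the oestrogen-responsive gene GREB1 and is required for kidney and inner ear development, and LIX1 was first found as a gene of the developing limb. LRP2, also called megalin, is a large endocytic receptor on the apical face of epithelia that takes part in forebrain patterning, and TNFRSF19, also called TROY, is an orphan member of the tumour necrosis factor receptor superfamily found in neural progenitors. WFIKKN2 encodes a secreted multidomain protein that binds and inhibits GDF8 and GDF11. LIMCH1 binds and activates non-muscle myosin II, TRPC4 forms calcium-permeable cation channels downstream of phospholipase C, and PLCL2 is a phospholipase C-like protein that lacks catalytic activity and binds inositol phosphates.

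The upstream sequence of some of the genes is shown as background. Being lower in the same libraries is how the genes were chosen, and shared control of them was not tested. RefSeq start-site windows on GRCh38.p14 matched 7 of the 8 genes, in 13 windows of 250 bases before to 50 bases after a start. LIX1 had no entry. The 250 bases upstream of a start are given for 4 of the genes, 5′ to 3′ on the strand of the gene, with the SP/KLF motif GGGCGG, its reverse complement and the ETS motif CCGGAA or its reverse complement in capitals. They lie at chr18:21241982-21242231 on the plus strand for GREB1L, chr2:169362535-169362784 on the minus strand for LRP2, chr4:41359357-41359606 on the plus strand for LIMCH1 and chr17:50834334-50834583 on the plus strand for WFIKKN2.
GREB1L: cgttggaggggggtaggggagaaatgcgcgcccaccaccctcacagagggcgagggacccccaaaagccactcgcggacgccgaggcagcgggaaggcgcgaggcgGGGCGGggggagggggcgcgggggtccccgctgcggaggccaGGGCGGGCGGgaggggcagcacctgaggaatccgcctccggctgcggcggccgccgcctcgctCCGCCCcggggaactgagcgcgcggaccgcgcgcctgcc
LRP2: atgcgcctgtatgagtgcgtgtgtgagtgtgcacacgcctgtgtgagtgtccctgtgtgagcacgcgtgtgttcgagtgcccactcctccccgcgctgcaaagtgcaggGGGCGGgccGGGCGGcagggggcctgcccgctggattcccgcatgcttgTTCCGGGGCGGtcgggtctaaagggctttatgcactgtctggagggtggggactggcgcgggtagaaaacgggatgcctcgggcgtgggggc
LIMCH1: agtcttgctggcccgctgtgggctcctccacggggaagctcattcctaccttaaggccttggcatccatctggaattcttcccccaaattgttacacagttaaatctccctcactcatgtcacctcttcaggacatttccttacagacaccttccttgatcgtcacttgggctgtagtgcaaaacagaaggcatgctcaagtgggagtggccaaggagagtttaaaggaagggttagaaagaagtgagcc
WFIKKN2: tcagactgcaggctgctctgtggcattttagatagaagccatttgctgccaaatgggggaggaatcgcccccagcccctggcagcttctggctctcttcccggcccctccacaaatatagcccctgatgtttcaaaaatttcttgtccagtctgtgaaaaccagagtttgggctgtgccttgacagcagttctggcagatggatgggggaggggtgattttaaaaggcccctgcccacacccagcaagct

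These 4 stretches differed widely in base composition. The GREB1L stretch was 78.8% G or C with 34 CG dinucleotides and the LRP2 stretch was 66.8% with 21, whereas the LIMCH1 stretch was 50% with 3 and the WFIKKN2 stretch 54% with 2, against a median of 58% and 11 over all 35116 windows. LIMCH1 has 4 start windows, and 250 bases upstream of another of its starts, at chr4:41360557-41360806, were 81.2% G or C with 42 CG dinucleotides and 5 SP/KLF matches. Searched on both strands of the whole windows, the SP/KLF motif was present in 5 of the 13 windows, of GREB1L, LIMCH1, LRP2, TNFRSF19 and TRPC4, and in 45% of all windows. The ETS motif was found in the LRP2 window, where it overlaps an SP/KLF match, and in 17.2% of all windows. A pair of the SP/KLF matches upstream of GREB1L also overlap each other. The SOX motif CTTTGT and the TCF/LEF motif CTTTGA each occurred in 2 windows, of LIMCH1 and PLCL2, beside 16.1% and 12.9% of all windows. The OTX motif TAATCC, the homeodomain motif TAATTA and the nuclear receptor half-site AGGTCA had no match in any of the 13 windows, beside 6.36%, 4.84% and 13.8% of all windows. The CCAAT box, written CCAAT, was in 2 windows and in 34.6% of all windows, and the TATA box, written TATAAA, in 1 and in 11.5%. A match here is a string of letters and not a measured binding site.

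Library totals ran from 47242595 to 78503395 counts, so 1 library's limit for a count of 0, taken as 3 counts, lay between 0.0459 and 0.0686 CPM (counts per 1000000, on library totals corrected by the trimmed mean of M-values, TMM). Of the sorting antigens, EPCAM RNA was 148 ± 37.2 CPM in general libraries and 196 ± 41.96 CPM in HHH libraries (SD, n = 5 per population). CD9 RNA was 71.2 ± 23.2 and 84.0 ± 10.6 CPM. POU5F1, the core pluripotency transcription factor, was at 516 ± 30.9 CPM in the general population and 569 ± 72.6 CPM in HHH. Labels did not say whether the replicates were separate cultures, so every p-value measures the spread between these libraries, which may be technical. In bulk RNA, fewer cells of a type and less RNA per cell cannot be told apart.

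Of the 23552 genes that passed the filter on low counts, 551, or 2.34%, were lower in HHH and 701, or 2.98%, differed in either direction, by edgeR's quasi-likelihood test with an adjusted p under 0.05 beside a change of over 1.5 times. On the deposited batch-corrected log2 values limma gave 864 lower and 39 higher genes, a share of 95.7% lower in place of 78.6%. All 8 chosen genes passed the filter and were among the 551, which the choice itself fixes. Ordered by the fitted fold within the 551 genes, LIX1, GREB1L, WFIKKN2, TNFRSF19, LIMCH1 and LRP2 held ranks 2, 3, 8, 11, 17 and 30. PLCL2 and TRPC4 held ranks 145 and 199, so by fold alone these 2 genes were not among the most reduced. The median fitted log2 fold change of the 8 genes was -2.65, beside 0.02 over all tested genes. The rule that chose the genes states no threshold.

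**Figure D1:**
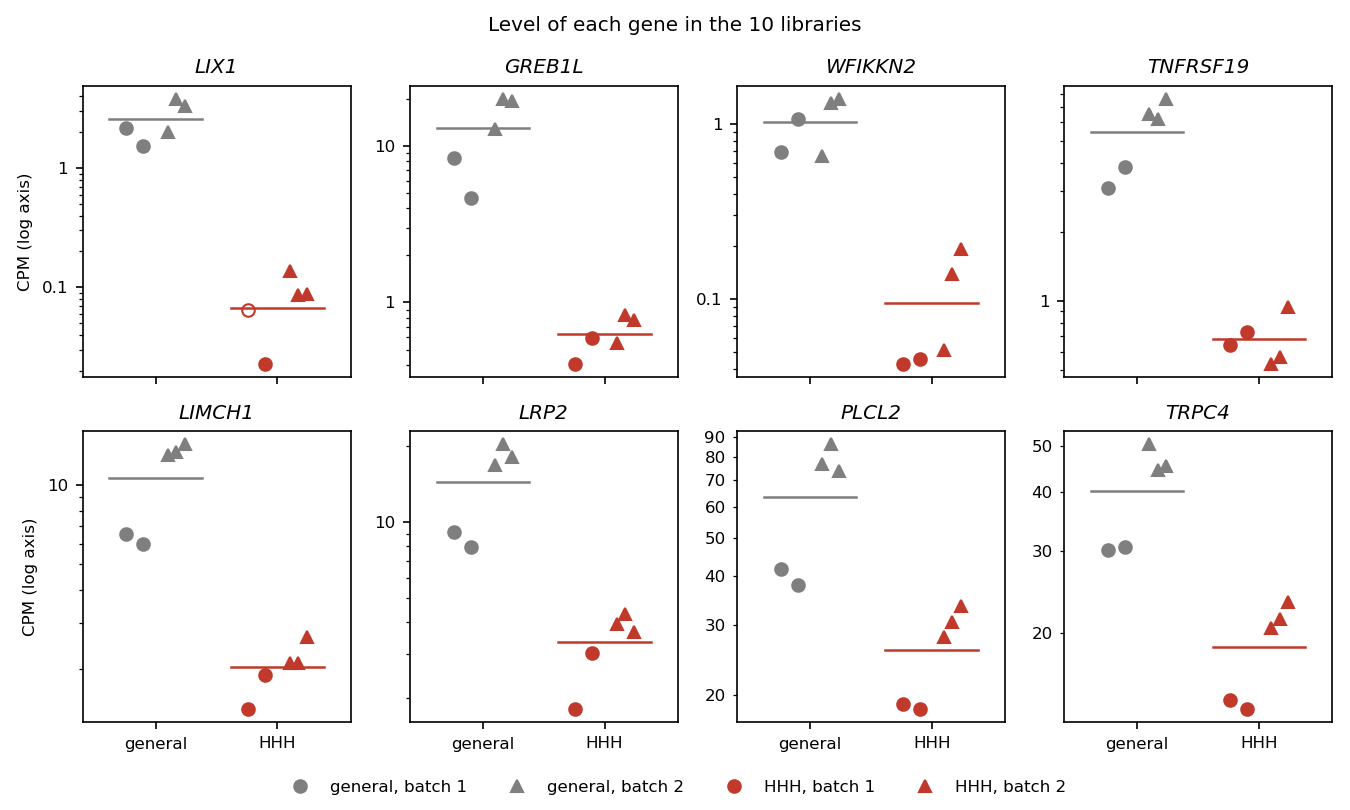
Level of each gene in CPM on a log axis in the 10 libraries, with general libraries in grey, HHH libraries in red, batch 1 as circles, batch 2 as triangles and horizontal lines at the mean of the 5 libraries of a population. In every panel the 5 HHH points lie below the 5 general points, a separation that the choice of the genes favours. The open circle marks the library with 0 LIX1 counts, drawn at its 3-count limit.

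GREB1L (chr18:21242232-21526112, plus strand, GRCh38, GENCODE 44) fell from a moderate level in the general population to under 1 CPM in each HHH library. The general libraries held 8.31 and 4.62 CPM in batch 1 and 12.8, 19.8 and 19.4 CPM in batch 2. The HHH libraries held 0.407 and 0.595 CPM in batch 1 and 0.549, 0.829 and 0.777 CPM in batch 2. The populations did not overlap, since the lowest general library was 5.58 times the highest HHH library. For this and the other 7 genes the choice itself favours such a gap. The share of all tested genes without overlap was not counted, so the gaps are a description only. The fitted log2 fold change was -4.31 (SE 0.24), a level 19.8 times lower. Within batches it was -3.69 in batch 1 and -4.59 in batch 2. Spread among the general libraries was the widest of the 8 genes, with an SD of 6.71 around a mean of 13.0 CPM, a coefficient of variation of 51.6%.

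LIX1 (chr5:97091867-97142753, minus strand) was nearly lost from the HHH libraries. General libraries held 141 and 92 counts in batch 1 and 115, 216 and 201 in batch 2, equal to 2.16, 1.54, 1.99, 3.79 and 3.35 CPM. The HHH libraries held 0 and 1 counts in batch 1 and 8, 5 and 5 in batch 2. For the HHH library with no LIX1 count, a level of up to 0.0643 CPM is allowed by counting error alone. The lowest general library was 11.2 times the highest HHH library, the widest gap of the 8 genes. Pooled within batch 1, the general level was 168.5 times the HHH level, with an exact 95% binomial counting interval of 29.95 to 6684, since the HHH side rests on 1 count. In batch 2 the ratio was 29.2, with an interval of 18.3 to 49.7. Intervals of this kind cover counting error only. The fit over all libraries gave a log2 fold change of -5.19 (SE 0.33).

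WFIKKN2 (chr17:50834650-50842353, plus strand) was the least abundant of the 8 genes per length in the general population. Its counts there were 45 and 64 in batch 1 and 38, 75 and 83 in batch 2, or 0.689, 1.07, 0.659, 1.32 and 1.38 CPM. The HHH libraries held 2 and 2 counts in batch 1 and 3, 8 and 11 in batch 2. No HHH library reached any general library, the lowest of which was 3.39 times the highest HHH library. The general to HHH ratio of pooled counts was 19.7 (exact 95% binomial interval 7.48 to 73.6) in batch 1 and 8.81 (5.66 to 14.4) in batch 2, and these intervals overlap. The fitted log2 fold change was -3.40 (SE 0.35). A lncRNA on the other strand, ENSG00000261976, shares 457 of the gene's 3800 exonic bases (12%), and its own level was 0.135 ± 0.0701 CPM in general and 0.0139 ± 0.0145 CPM in HHH libraries. Whether counting used strand is not given in the sources used here, so reads in the shared bases cannot be assigned with certainty.

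TNFRSF19 (chr13:23570370-23676104, plus strand) stood at 3.11 and 3.82 CPM in the general libraries of batch 1 and 6.54, 6.19 and 7.58 CPM in those of batch 2. In HHH it stood at 0.643 and 0.732 CPM in batch 1 and 0.532, 0.570 and 0.936 CPM in batch 2. The general libraries of batch 2 were all above those of batch 1, whereas the HHH libraries of the batches were interleaved. The log2 fold change was -2.96 (SE 0.20) over all libraries, -2.33 in batch 1 and -3.32 in batch 2. In percent, the HHH mean was 19.8% of the general mean in batch 1 and 10.04% in batch 2.

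LIMCH1 (chr4:41359607-41700044, plus strand) and LRP2 (chr2:169127109-169362534, minus strand) kept an intermediate share of their general level in HHH. LIMCH1 was at 6.54 and 5.998 CPM in the general libraries of batch 1 and at 13.1, 13.4 and 14.3 CPM in batch 2, against 1.41 and 1.90 CPM in HHH of batch 1 and 2.11, 2.11 and 2.65 CPM in HHH of batch 2. LRP2 was at 9.16 and 7.96 CPM and then 16.8, 20.3 and 18.1 CPM in the general libraries, and at 1.82 and 3.02 CPM and then 3.95, 4.34 and 3.66 CPM in HHH. For both genes every library of batch 2 was above every library of batch 1 of the same population, and the populations did not overlap. The fitted log2 fold change was -2.33 (SE 0.14) for LIMCH1, or 5.04 times lower. For LRP2 it was -2.07 (SE 0.13), or 4.19 times lower.

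PLCL2 (chr3:16802651-17090604, plus strand) and TRPC4 (chr13:37632063-37869802, minus strand) were the most abundant of the 8 genes per length and kept the largest share of their level in HHH. PLCL2 stood at 41.6 and 38 CPM in the general libraries of batch 1 and 76.9, 86.4 and 73.9 CPM in batch 2, and at 18.96 and 18.4 CPM and then 28.1, 30.5 and 33.5 CPM in HHH. TRPC4 stood at 30.2 and 30.6 CPM and then 50.5, 44.6 and 45.5 CPM in the general libraries, and at 14.4 and 13.8 CPM and then 20.5, 21.5 and 23.4 CPM in HHH. Populations came closer to each other here than for the other genes, since the lowest general library was 1.13 times the highest HHH library for PLCL2 and 1.29 times for TRPC4. Within each batch the gap was wider. The log2 fold change was -1.26 (SE 0.082) for PLCL2 and -1.10 (SE 0.069) for TRPC4, with -1.10 in each batch for TRPC4. An antisense lncRNA, PLCL2-AS1, shares 40 exonic bases with PLCL2 and was at 0.835 ± 0.558 CPM in general and 0.321 ± 0.130 CPM in HHH libraries, a log2 fold change of -1.28 beside -1.26 for PLCL2.

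**Figure D2:**
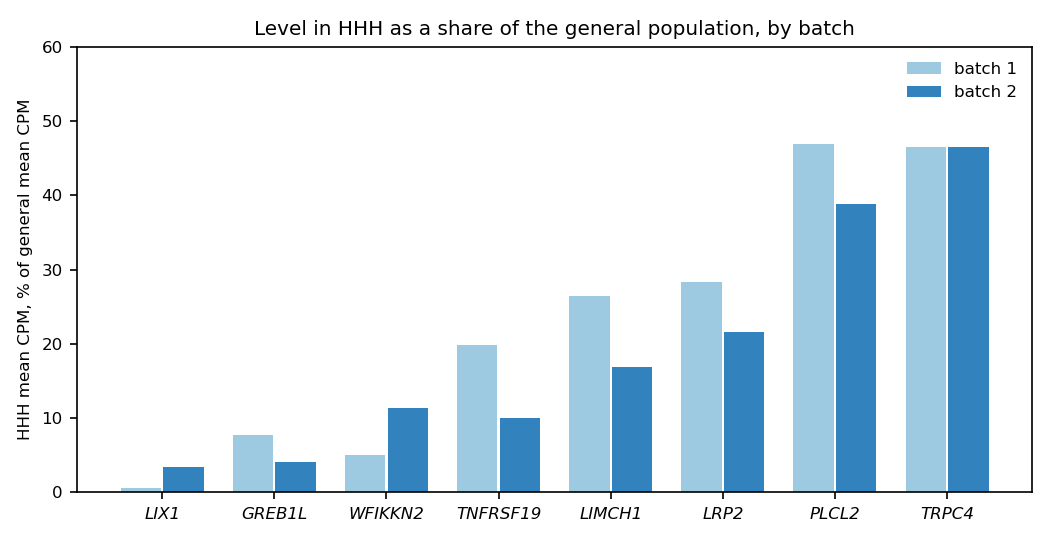
HHH mean CPM as a percentage of the general mean CPM of the same batch, for each gene, with batch 1 in light blue and batch 2 in dark blue. The share ran from 0.618% for LIX1 in batch 1 to 47.0% for PLCL2 in batch 1, and it was lower in batch 2 for GREB1L, TNFRSF19, LIMCH1, LRP2 and PLCL2, higher for LIX1 and WFIKKN2, and 46.5% in both batches for TRPC4.

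Compared per length, as reads per kilobase of exon per 1000000 reads (RPKM, on GENCODE 44 exonic lengths), the general population ranked the genes PLCL2 (12.3 ± 4.27), TRPC4 (4.94 ± 1.14), GREB1L (1.15 ± 0.595), TNFRSF19 (1.07 ± 0.371), LIMCH1 (0.982 ± 0.373), LRP2 (0.898 ± 0.345), LIX1 (0.642 ± 0.239) and WFIKKN2 (0.269 ± 0.0894; SD, n = 5). On these lengths PLCL2 did not overlap TRPC4, TRPC4 did not overlap GREB1L, and LIX1 did not overlap WFIKKN2. The neighbours from GREB1L down to LIX1 differed by less than the larger of the 2 SDs. In HHH the order on the same scale was PLCL2 (5.02), TRPC4 (2.30), LRP2 (0.208), LIMCH1 (0.187), TNFRSF19 (0.133), GREB1L (0.0560), WFIKKN2 (0.0249) and LIX1 (0.0168). GREB1L thus went from position 3 to position 6. The deposited length-scaled values implied a TRPC4 length of 4443 bases where GENCODE 44 gives 8155. On the implied lengths the order in the general population was the same, with TRPC4 at 9.06 and PLCL2 at 11.5. The ranges of PLCL2 and TRPC4 over the general libraries then overlapped.

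The rule that chose the genes compared the populations and not the batches, so differences between batches within a population were tested gene by gene. The choice did use these same libraries of both batches. The shares over all genes are therefore given as background only, and the 8 genes were not tested as a group. In the general population 7 of the 8 genes were higher in batch 2 than in batch 1 by edgeR's quasi-likelihood test, while 13.4% of all tested genes were higher by the same rule. The log2 fold change was 1.42 (SE 0.24, adjusted p = 4.59e-04 by edgeR) for GREB1L, 1.12 (6.29e-05) for LIMCH1 and 1.10 (1.88e-04) for LRP2. It was 0.99 (adjusted p = 1.17e-05 by edgeR) for PLCL2, 0.97 (0.00149) for TNFRSF19, 0.72 (0.0452) for LIX1 and 0.63 (2.18e-04) for TRPC4. WFIKKN2 was the exception, at 0.35 (adjusted p = 0.443 by edgeR). The LIX1 call depended on single libraries. It was lost without general batch 1 replicate 1 or 2, general batch 2 replicate 2 or 3, or any 1 HHH library of batch 2, with edgeR adjusted p of 0.0505 to 0.281. TRPC4 dropped below the fold limit without general batch 2 replicate 1, at 0.57 on the log2 scale.

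In HHH, 6 of the 8 genes had at least 10 counts in each library, and 3 of these 6 were higher in batch 2, beside 9.60% of all tested genes. PLCL2 differed by 0.72 on the log2 scale (SE 0.11, adjusted p = 2.05e-04 by edgeR), TRPC4 by 0.62 (3.44e-04) and LRP2 by 0.72 (0.00958). The LRP2 call was lost without HHH batch 1 replicate 2, where the edgeR adjusted p was 0.164. LIMCH1, at 0.47 on the log2 scale (adjusted p = 0.0492 by edgeR), did not pass the fold limit. GREB1L was at 0.52 (0.329) and TNFRSF19 at -0.02 (0.969). LIX1 and WFIKKN2 passed the filter on low counts through the general libraries and held at most 8 and 11 counts in an HHH library, so their counts are given without a call. LIX1 had 1 count in batch 1 and 18 in batch 2, a batch 2 to batch 1 ratio of 9.42 with an exact 95% interval of 1.49 to 392.5. WFIKKN2 had 4 and 22 counts, a ratio of 2.88 with an interval of 0.978 to 11.5. Whether the batch difference of a gene was itself different between the populations was not tested, because the genes were chosen on both batches of the same libraries.

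**Figure D3:**
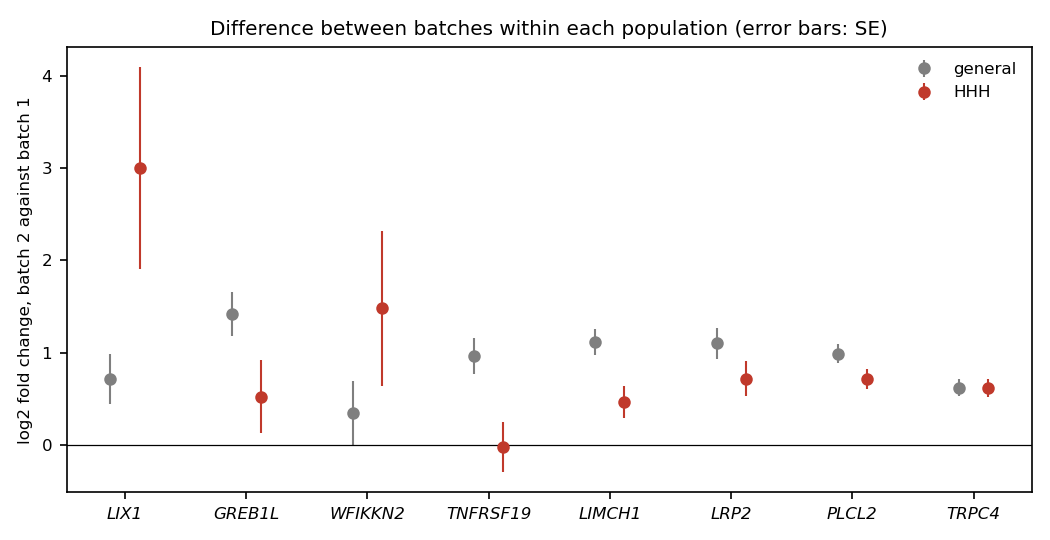
Fitted log2 fold change of batch 2 against batch 1 for each gene, with the general population in grey, HHH in red and error bars of 1 SE. In the general population all 8 points lie above 0, between 0.35 for WFIKKN2 and 1.42 for GREB1L, and in HHH TNFRSF19 lies at -0.02 while LIX1, at a fitted 3.00 from HHH counts of 0 to 8, has the widest error bar.

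Around the mean of their own population and batch, the genes deviated only in part together. The median Pearson correlation of the deviations over the 28 pairs of genes was 0.30 across the 10 libraries, and 23 of the 28 pairs were above 0, beside a median of 0.003 between these genes and all other tested genes. The highest correlation was between LIX1 and LRP2 (0.71) and the lowest between LIX1 and TRPC4 (-0.81). Both rest in part on LIX1 in HHH, where libraries of 0 and 1 counts in batch 1 deviated by -0.36 and 0.36. LIMCH1 and TNFRSF19 correlated at 0.68, as did TNFRSF19 and WFIKKN2. These points share library preparation and depth, and 4 degrees of freedom went into the means. General batch 2 replicate 1 lay below the other general libraries of its batch for GREB1L, LIX1 and WFIKKN2, by 0.41, 0.55 and 0.66 log2 units below the batch mean, and above it by 0.11 for TRPC4. It was also the lowest of its batch for LRP2 and LIMCH1, at -0.13 and -0.055 from the batch mean. In the general libraries alone the median correlation was 0.10, and without LIX1 and WFIKKN2, which had the fewest counts, it was 0.28. Leaving out 1 library moved it from 0.16, with 17 of 28 pairs above 0, without HHH batch 2 replicate 3, and 0.17 without HHH batch 2 replicate 1, to 0.40 without general batch 2 replicate 2.

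**Figure D4:**
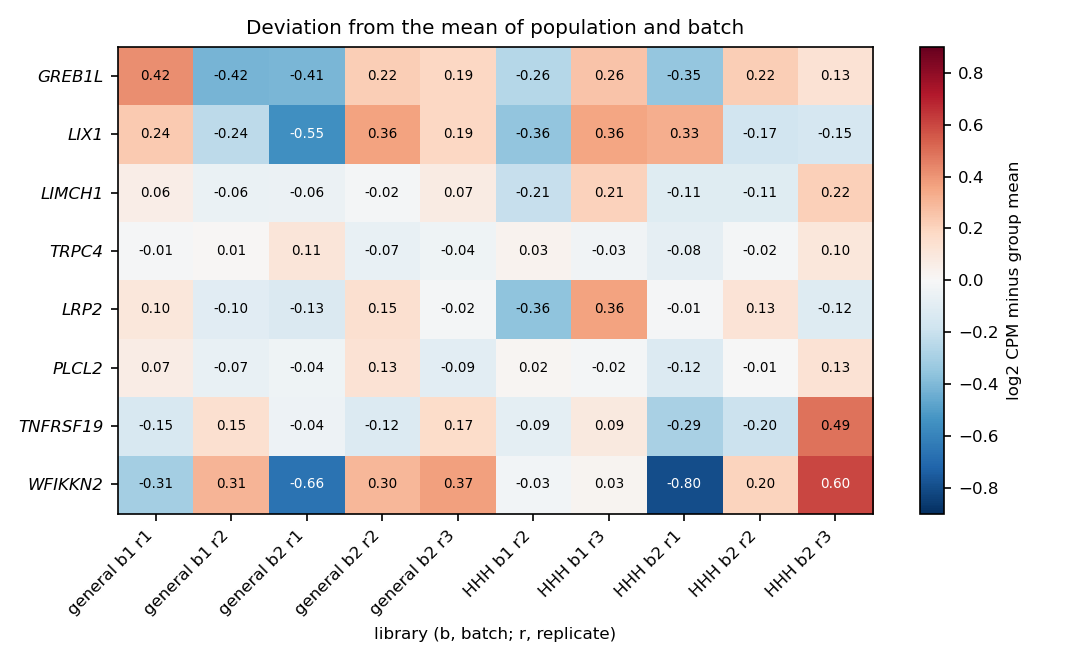
Deviation of log2 CPM from the mean of the same population and batch, for each of the 8 genes (rows) in each of the 10 libraries (columns), with red above and blue below the mean. WFIKKN2 and LIX1 hold the widest deviations, down to -0.80 for WFIKKN2 in HHH batch 2 replicate 1, and TRPC4 the narrowest, all within 0.11.

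The genes whose pattern was most like each of the 8, by Pearson correlation of log2 CPM over the 10 libraries after removal of each gene's batch mean, included other members of the group. LIMCH1 and TNFRSF19 were among each other's nearest 3 (0.99), and GREB1L was among the nearest 3 of LRP2 (0.99). SEMA6D, a semaphorin, was nearest to both LIMCH1 (0.996) and TNFRSF19 (0.997). ARMH4 was nearest to GREB1L and PLCL2, and KCNG3, a potassium channel subunit, was nearest to LRP2 (0.99) and among the nearest of GREB1L. OTX2, an anterior neural transcription factor also expressed in pluripotent cells, was among the nearest of PLCL2 (0.99) with DHRS3, a retinaldehyde reductase. LIX1 was nearest to CHRNB4, FEZF1 and FST (0.99 each), TRPC4 to SERPINA5, PLS3 and LGR4 (0.99 each) and WFIKKN2 to SGMS2, PAK3 and RAB6B (0.98 each). PRODH for GREB1L, SYT6 for LIMCH1, SERPINB9 for LRP2 and NDRG2 for TNFRSF19 completed these lists. Such values are high for any gene that differs between the populations, since the population difference is left in, and between the 8 genes themselves they ran from 0.94 to 0.99.

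None of the 6 closest relatives that could be tested passed the test, beside 2.98% of all tested genes in either direction. So few genes cannot show whether relatives differ from other genes. GREB1 was at 31.4 ± 7.37 CPM in general and 34.6 ± 6.36 CPM in HHH libraries, a log2 fold change of 0.16 (adjusted p = 0.439 by edgeR), while GREB1L was 19.8 times lower in HHH. LMO7, the relative of LIMCH1, was at -0.04 (0.911), TRPC5 at -0.21 (0.427) and LRP1 at -0.32 (0.164) by the same edgeR test. PLCL1 was at 0.33 (adjusted p = 0.539 by edgeR) from a level of only 0.293 CPM, and WFIKKN1 was at -0.29 (0.443), with 0.52 in batch 1 and -0.83 in batch 2. EDAR, a relative of TNFRSF19, was below the filter at 0.0675 ± 0.0337 CPM in general libraries, and LIX1L was not analysed here.

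Of 57 listed relatives and pathway partners, chosen with earlier results of these data known, 55 were counted and 52 tested. By edgeR's quasi-likelihood test 3 were lower in HHH and 0 higher, a share to be read against 2.34% of all genes. Whatever the fold, 7 of the 52 had an adjusted p under 0.05, beside 1373 of all 23552 tested genes. The median log2 fold change of the 52 genes was -0.10, beside 0.02 for all tested genes. Among the canonical TRP channels, which form tetramers with one another, TRPC6 fell from 2.44 ± 1.11 to 0.691 ± 0.224 CPM (log2 fold change -1.78, adjusted p = 3.03e-04 by edgeR). TRPC1, at 29.7 ± 4.53 CPM in general and 27.0 ± 2.94 CPM in HHH libraries, did not pass. FST, the secreted activin and GDF inhibitor follistatin, fell from 15.4 ± 2.60 to 5.48 ± 0.890 CPM (-1.49, adjusted p = 5.67e-07 by edgeR). CUBN, the cubilin receptor that is internalised with megalin, fell from 0.407 ± 0.103 to 0.223 ± 0.0681 CPM (-0.86, adjusted p = 0.0435 by edgeR).

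None of the 11 other LDL receptor family genes tested or the 8 TNF receptor relatives and partners passed both thresholds. Nor did the 6 non-muscle myosin genes or the 9 inositol phosphate and calcium entry genes, while 2.98% of all tested genes passed both. In that order, 1, 0, 0 and 3 genes had an adjusted p under 0.05, beside 1373 of all 23552 tested genes. GDF11, a ligand of WFIKKN2, was at 22.03 ± 5.004 CPM in general and 17.2 ± 0.494 CPM in HHH libraries. MSTN, which encodes GDF8, was below the filter. MYH9 and MYH10, the abundant non-muscle myosin heavy chains, were at 435 and 405 CPM in general libraries and at 401 and 352 CPM in HHH. The CUBN call was lost with replicate number as a block, with an edgeR adjusted p of 0.0726, while TRPC6 and FST kept theirs. It was also lost without any 1 library other than HHH batch 1 replicate 3 or HHH batch 2 replicate 3.

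**Figure D5:**
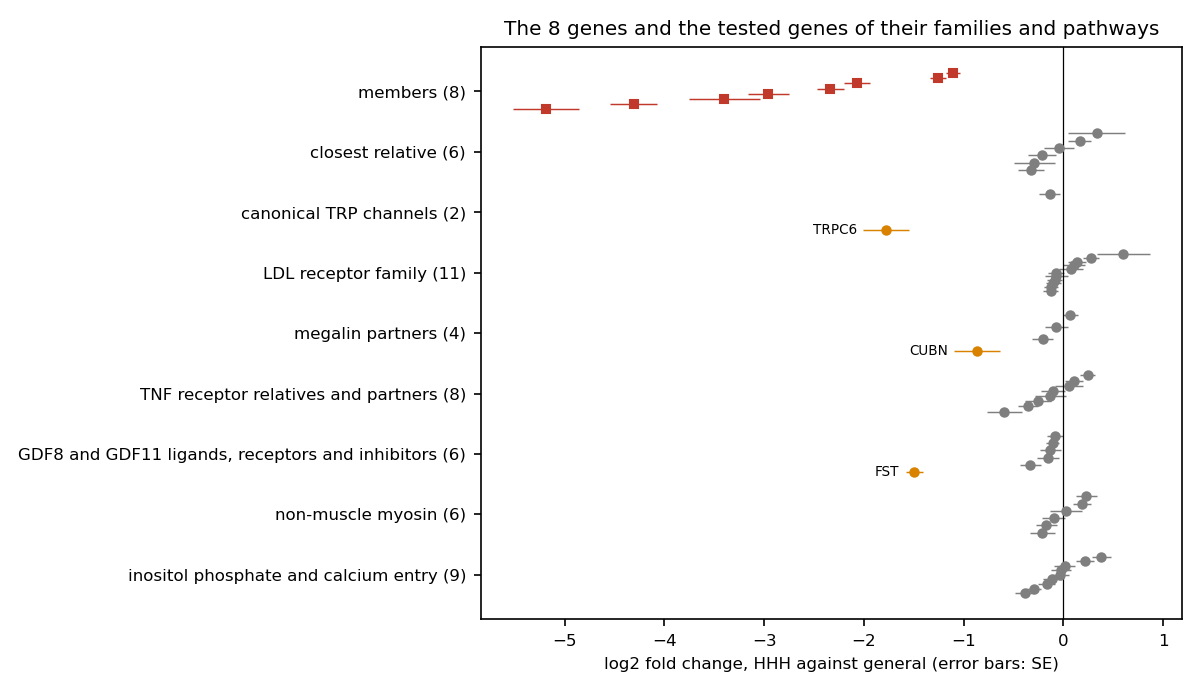
Log2 fold change of HHH against general with error bars of 1 SE for the 8 chosen genes (red squares), their closest relatives and the other listed genes of their families and pathways (grey circles, or orange and named where the test was passed), with the number of tested genes in parentheses. The 8 genes lie between -5.19 and -1.10, and apart from TRPC6, FST and CUBN the listed genes lie between -0.59 and 0.60.

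Some markers of early neural cells were lower in the same libraries as the 8 genes. Of 15 listed early neural genes, 11 were tested and 6 were lower in HHH by edgeR's quasi-likelihood test, beside 2.34% of all tested genes. The marker lists were chosen with earlier results of these data known, so such shares are a description and not a test of a list. The median log2 fold change over the 11 was -1.39, beside 0.02 over all tested genes. LHX5, a forebrain LIM-homeodomain factor, was the most reduced of all genes called (log2 fold change -5.57, adjusted p = 1.63e-06 by edgeR, and -6.35 without HHH batch 1 replicate 3). FEZF1, another forebrain factor, was at 54.7 ± 13.8 CPM in general and 11.3 ± 4.48 CPM in HHH libraries (-2.32, adjusted p = 6.09e-07), and HESX1 was at -1.45 (2.58e-04), ZIC1 at -2.46 (2.83e-04), DLK1 at -2.77 (5.09e-04) and SOX1 at -1.39 (0.0391) by edgeR. The abundant progenitor filament gene NES, at 222 ± 27.5 and 192 ± 45.9 CPM, did not pass, nor did PAX6 (-0.15), OTX1 (-0.51), FABP7 (0.23) or SIX6, which at 1.05 (adjusted p = 0.0662 by edgeR) went the other way. The summed level of the 15 genes was 261.9 to 361.4 CPM in general and 158.7 to 265.1 CPM in HHH libraries, most of it from NES. The SOX1 call was lost in 8 of 10 fits without 1 library, with an edgeR adjusted p of up to 0.123, and held without general batch 1 replicate 2 or HHH batch 1 replicate 3.

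Other marker lists moved less. In neural crest, SOX10 was lower (log2 fold change -0.84, adjusted p = 0.0190 by edgeR), 1 of 4 tested genes beside 2.34% of all. The median of the 4 was 0.17, with FOXD3, the most abundant, at 0.44 (adjusted p = 0.0391 by edgeR, below the fold limit), SNAI2 at 0.41 and PAX3 at -0.08. Their list's summed level was 13.1 to 15.2 CPM in general and 12.7 to 24.0 CPM in HHH libraries. COL1A1 was lower among the fibroblast genes (-0.94, adjusted p = 0.00334 by edgeR), 1 of 3 tested, with sums of 115.7 to 138.9 and 79.4 to 119.1 CPM. The SOX10 call was lost in 5 of 10 fits without 1 library, with an edgeR adjusted p of up to 0.0689, namely HHH batch 2 replicate 1 or 2 or any general library of batch 2. MIXL1, the only mesendoderm gene tested, was at 0.397 and 0.494 CPM, and the summed mesendoderm level was 0.995 to 1.57 CPM in general and 1.02 to 2.61 CPM in HHH libraries. POU5F1, the highest of 3 pluripotency genes, did not pass, and the summed level of the 3 was 716.5 to 846.1 CPM in general and 624.7 to 949.9 CPM in HHH libraries. NANOG differed by 0.44 (adjusted p = 0.00572) and SOX2 by -0.26 (0.0375), both by edgeR and below the fold limit. The part of these cell types in the lower levels of the 8 genes was not tested.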

How the data were processed

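Total RNA libraries from 5 general and 5 HHH samples were analysed. The authors deposited raw read counts per Ensembl gene ID and log2 RPKM values, carried in the tables used here as a score, on the TMM scale with batch removed (batch means equal to within 9.2e-14 over 27641 genes), so the count table was the main source. The submitters' processing notes name GRCh37, CASAVA 1.8.2, R 3.2.2 and limma 3.26.9. The aligner and counter are not given in the sources used here. Symbols and positions came from GENCODE 44 (GRCh38), which matched 49395 of 55841 IDs (88.5%) and 94% of the genes tested. Unmatched IDs held 7.44% to 20.3% of counts per library.

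Deposited counts were tested with edgeR 4.0.16 in R 4.3.3 (minimum count 10, TMM, quasi-likelihood F test, two-sided, batch as covariate, Benjamini-Hochberg over 23552 genes), where a call needed an adjusted p under 0.05 beside a change of over 1.5 times. Batch contrasts used the 4 means of population and batch. Each SE of a fold change was worked back from the test, as the absolute log2 fold change over the square root of F. For the 8 genes in HHH against general it is a description, and no p-value is drawn from it. Alternatives used DESeq2 1.42.0 and limma 3.58.1. The procedure was tested on simulated data. Log2 CPM used a prior count of 2. Named were all 8 genes, the closest relative of each, each listed partner or marker called, the highest gene of a marker list with none called, and the 3 genes, of those averaging at least 1 CPM, most correlated with each of the 8. Other genes named (TRPC1, GDF11, MSTN, MYH9, MYH10, NES, PAX6, OTX1, FABP7, SIX6, FOXD3, SNAI2, PAX3, LRP3, EDA2R, PLCL2-AS1, NANOG, SOX2, EPCAM and CD9) were chosen after their values were seen. The 8 genes, the lists and the motifs were chosen with earlier results of these data known. A listed partner is not reported here. Deviations of replicates of equal number correlated at 0.113 to 0.239 over 4 pairs, and in batch 2 all pairs of unequal number were negative. In batch 1, general replicate 1 with HHH replicate 3 was also at 0.113, since 2 libraries deviate from their mean by equal and opposite amounts. Batch 1 therefore cannot show pairing by number. A fit with replicate number as a block was run beside the main one. In it general batch 1 replicate 1 and HHH batch 1 replicate 3 had no partner of equal number.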

Additional observations from a re-analysis of the deposited data

Results flagged for a closer look

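Of 50 groups of 5 libraries tested for a library far from the others, 1 was flagged, where chance flags about 1 in 20. LHX5 was 0.366 CPM in HHH batch 1 replicate 3, against 0.141 CPM in the nearest and 0.0518 CPM in the lowest HHH library, a gap of 0.715 of the range. Without that library the log2 fold change of LHX5 was -6.35, beside -5.57 with it.

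The change of WFIKKN1 in HHH differed between batches, by -1.35 on the log2 scale (batch 2 minus batch 1, adjusted p = 0.00731 for the interaction in edgeR), being 0.52 in batch 1 and -0.83 in batch 2. The change of COL1A1 differed by -1.01 (adjusted p = 0.0316 in edgeR), being -0.33 in batch 1 and -1.34 in batch 2. LRP3 differed by -0.70 (adjusted p = 0.0254 in edgeR), being 0.53 in batch 1 and -0.17 in batch 2. The same interaction passed for 3 of 74 tested genes of the lists and for 183 of all 23552 genes.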

How the results depend on the processing

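Each of the 8 genes was lower in HHH under every alternative that could fit it, a direction that the choice of the genes on these libraries favours. Their median log2 fold change moved beyond the replicate spread in batch 1 alone (-2.13) and with at least 1 CPM in 5 libraries (-2.35, 7 genes fitted), and leaving out 1 library gave -2.78 to -2.53. Called genes of all tested numbered 151 with no batch term, 1114 with no filter, 136 (49.3% lower) on batch 1 and 1178 on batch 2 by itself, and 523 to 963 without 1 library. Among relatives and partners 2 were called with no batch term, with no filter, with the 1 CPM filter and with the replicate block, each without CUBN, which DESeq2 did not call either (adjusted p = 0.0768, with EDA2R called instead), 1 in batch 1 alone, and 2 to 3 without 1 library. Marker genes called numbered 5 with no batch term, 5 with the 1 CPM filter, 12 with no filter, 9 with DESeq2, and 6 to 10 without 1 library. SIX6, which lay higher in HHH at 1.05 in the main fit, was among those called with no filter and with DESeq2. In the batch contrasts 6 to 7 of the 8 genes passed in general libraries and 2 to 4 in HHH without 1 library, LIX1 counted. The HHH range is out of 8 genes and counts LIX1 wherever it passed. LIX1 held at most 8 counts in an HHH library and is given no call there. Over all libraries the count was 4 with LIX1, beside 3 of the 6 genes with at least 10 counts in each HHH library. The HHH range therefore cannot be read as a range for those 3 of 6. Scaling by library size alone shifted the median of all genes to 0.42 in the general and 0.27 in the HHH contrast on the log2 scale. With it 7 of the 8 genes were called in general libraries, LIX1 counted. In HHH it added a call for LIMCH1, at 0.74 (adjusted p = 0.0074 by edgeR). The LIX1 call in general libraries was lost with DESeq2 (adjusted p = 0.0528) and limma with voom (0.0539).

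Values that changed sign, none of them called over all libraries, were LMO7 (-0.12 to 0.12 without 1 library, 0.00335 with the block, 0.080 without general batch 1 replicate 1, 0.12 without HHH batch 1 replicate 2, 0.19 in batch 2 alone), TRPC5 (0.013), LRP1 (0.0094) and WFIKKN1 (0.51) in batch 1 alone, GREB1 (-0.00716) in batch 2 alone, and the TNFRSF19 batch difference in HHH (-0.30 to 0.13 without 1 library, 0.031 with upper quartile scaling, 0.25 by library size, 0.0055 with no filter, 0.074 without HHH batch 1 replicate 3, 0.13 without HHH batch 2 replicate 1, 0.094 without HHH batch 2 replicate 2). The cause was not tested. With replicate number as a block, 819 genes were called and the median of the 8 genes was -2.82. Of the genes named in HHH against general only CUBN changed its call. The batch contrasts were not fitted with the block. Counting error limits LIX1 and WFIKKN2, whose HHH libraries hold 0 to 11 counts.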
